A study of Mus musculus with 11 samples.

Results

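The replication-dependent histone genes were taken as all rows on chromosomes 1 to 19 whose symbol begins with Hist1h, Hist2h, Hist3h or Hist4h. The promoter table held 63 of them among 24391 promoters, and the gene table held 53 among 25802 gene bodies. Together these were 64 genes, of which 52 had both a promoter and a gene body. CpG methylation was measured by reduced representation bisulfite sequencing in whole pancreas of wild type C57BL/6N mice on postnatal day 0. The amphetamine group held 5 mice, 3 females and 2 males, whose dams had received amphetamine at 10 mg/kg on embryonic days 14.5, 15.5 and 16.5. The control group held 6 mice, 3 females and 3 males, whose dams had received saline. The litter of each mouse is not in the labels, so that littermates may share a dam and the p-values measure only the spread between these mice. The pancreas is a mixture of cell types, and a methylation level of the whole organ cannot tell a change within cells from a change in their proportions. No expression was used here, so the labelled tissue was not checked against marker genes.

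Replication-dependent histones are the proteins around which newly copied DNA is wrapped. The core histones H2A, H2B, H3 and H4 form the nucleosome, and linker histone H1 binds the DNA that enters and leaves it. Their genes are small, mostly without introns, and lie in clusters in which an H2A and an H2B gene are often transcribed away from a shared promoter. They are switched on together in S phase at nuclear bodies called histone locus bodies, and their mRNAs end in a conserved stem-loop in place of a poly(A) tail. Some copies are specific to germ cells, among them Hist1h2ba and Hist1h2aa, which encode the testis forms of H2B and H2A.

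The members lay in 6 places (mm10). The largest were on chromosome 13, with 23 genes in chr13:21714922-22044444 and 26 genes in chr13:23532406-23935656. The Hist2 genes occupied chr3:96218365-96270220 with 10 genes, and the Hist3 genes chr11:58947420-58956012 with 3. Hist1h2al stood apart at chr13:51202566-51204565, and Hist4h4, on chromosome 6, had a gene body only. Since each promoter window reaches from 1500 bp before to 500 bp after the gene start, neighbouring members shared much of their measurement. The 63 promoters formed 34 blocks of overlapping windows, and 16 of them, in 8 pairs, had values identical to those of their partner. Thus, the 63 promoters are not 63 independent measurements.

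The stem-loop at the end of the mRNA is a sequence feature that the choice of members did not use. Its consensus of 16 bases was searched on the sense strand in the first 2000 bases from the gene start, for the 61 members whose identifier is in GENCODE M21. It was present in 54 members (88.5%), against 0.313% of 23985 promoters' genes. The 3 commonest forms, found in 37, 8 and 4 members, are shown with the paired stem in capitals, written as DNA:
form in 37 members: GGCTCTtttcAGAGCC
form in 8 members: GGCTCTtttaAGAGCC
form in 4 members: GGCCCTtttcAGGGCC
Hist2h2be, Hist1h2aj, Hist1h4j, Hist1h2an, Hist1h1d, Hist1h2be and Hist1h2al had no match in this window. In GENCODE M21, 57 of the 61 members are protein-coding. Hist1h2al, Hist1h2aj and Hist3h2bb-ps are pseudogenes and Hist2h2bb is a long non-coding RNA, and all are kept in the counts here.

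Promoter motifs followed the histone class. Within 250 bases before to 50 bases after the gene start, on either strand, CCAAT was present in 88.5% of members against 37.4% of all promoters, and TATAAA in 55.7% against 10.7%. ATTTGCAT, the octamer bound by Oct-1, was found in 47.1% of 17 H2B and 36.8% of 19 H2A promoters, which share windows, but in none of the 5 H1, 12 H3 and 8 H4 promoters, against 1.63% of all promoters. AAACACA, known from H1 promoters, was present in 3 of 5 H1 members, against 6.24% of all promoters. The 250 bases before the gene start are shown for the germ-line gene Hist1h2ba, for the somatic H2B gene Hist1h2bc, for Hist1h4f, whose promoter was among the most methylated, and for Hist1h3i, which had the largest negative promoter difference between amphetamine and control. They were read from GRCm38 on the strand of the gene, with CCAAT boxes, TATA motifs and octamers in either orientation in capitals:
Hist1h2ba, chr13:23934157-23934406, minus strand: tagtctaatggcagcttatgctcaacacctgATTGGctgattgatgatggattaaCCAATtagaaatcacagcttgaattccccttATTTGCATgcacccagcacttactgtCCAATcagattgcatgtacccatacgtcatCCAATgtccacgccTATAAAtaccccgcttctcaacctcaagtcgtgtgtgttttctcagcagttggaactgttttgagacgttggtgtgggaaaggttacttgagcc
Hist1h2bc, chr13:23683949-23684198, plus strand: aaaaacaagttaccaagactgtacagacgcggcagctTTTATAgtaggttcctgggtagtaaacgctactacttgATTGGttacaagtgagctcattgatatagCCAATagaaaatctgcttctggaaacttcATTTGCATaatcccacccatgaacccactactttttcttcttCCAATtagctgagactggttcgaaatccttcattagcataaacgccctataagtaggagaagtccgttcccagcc
Hist1h4f, chr13:23551649-23551898, minus strand: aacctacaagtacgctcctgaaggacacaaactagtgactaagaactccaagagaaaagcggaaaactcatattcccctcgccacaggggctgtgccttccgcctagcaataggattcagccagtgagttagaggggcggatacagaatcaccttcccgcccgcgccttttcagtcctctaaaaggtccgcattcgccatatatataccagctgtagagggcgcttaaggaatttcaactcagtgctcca
Hist1h3i, chr13:21783371-21783620, minus strand: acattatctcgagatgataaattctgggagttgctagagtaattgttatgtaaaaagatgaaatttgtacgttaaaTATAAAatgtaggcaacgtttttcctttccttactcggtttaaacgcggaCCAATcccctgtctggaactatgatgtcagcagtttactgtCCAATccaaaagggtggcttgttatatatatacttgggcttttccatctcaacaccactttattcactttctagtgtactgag
The stretch of Hist1h2ba held 4 CCAAT boxes, an octamer and a TATAAA, with 5 CpGs. The stretch of Hist1h4f held none of the 3 motifs and 11 CpGs.

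A property that may bear on the values below is how alike the copies are. RRBS reads begin at the enzyme cut sites, so the reads a promoter can give are known from the genome. After conversion of C to T, a median of 30% of the possible reads of a histone promoter occur at only 1 place in the genome, against 100% for all promoters. For 42 of the 63 promoters fewer than 50% of the possible reads were unique, and for 6 none was. The H2B genes are an example. A coding stretch of 149 bases in Hist1h2ba holds all 7 possible reads that this gene shares with other places, each of which occurs at 7 to 15 places. The same stretch is shown for 4 other H2B genes from the sense strand, with CpGs in capitals:
Hist1h2ba, chr13:23933793-23933941: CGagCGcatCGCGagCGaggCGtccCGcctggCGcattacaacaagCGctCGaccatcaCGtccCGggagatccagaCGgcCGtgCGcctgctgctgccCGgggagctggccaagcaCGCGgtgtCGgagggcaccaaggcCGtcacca
Hist1h2bh, chr13:23542992-23543140: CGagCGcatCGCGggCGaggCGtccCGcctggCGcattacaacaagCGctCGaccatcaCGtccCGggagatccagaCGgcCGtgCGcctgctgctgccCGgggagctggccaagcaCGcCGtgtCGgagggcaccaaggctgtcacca
Hist1h2bg, chr13:23571645-23571793: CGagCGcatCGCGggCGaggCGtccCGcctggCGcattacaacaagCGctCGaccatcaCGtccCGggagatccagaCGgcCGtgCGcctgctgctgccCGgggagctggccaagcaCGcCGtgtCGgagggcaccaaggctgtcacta
Hist1h2bl, chr13:21715783-21715931: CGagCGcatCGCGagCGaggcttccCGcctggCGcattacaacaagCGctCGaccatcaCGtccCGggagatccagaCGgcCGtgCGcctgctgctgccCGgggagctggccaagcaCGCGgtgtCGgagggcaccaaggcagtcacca
Hist3h2ba, chr11:58949152-58949300: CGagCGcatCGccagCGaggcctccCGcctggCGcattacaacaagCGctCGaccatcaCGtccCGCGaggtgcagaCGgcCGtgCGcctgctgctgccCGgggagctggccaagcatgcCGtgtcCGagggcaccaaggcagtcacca
In Hist1h2bj, Hist1h2bq and Hist1h2br the stretch was identical to that of Hist1h2ba. It differed at 3 bases in Hist1h2bh, at 4 in Hist1h2bg, at 2 in Hist1h2bl and at 9 in Hist3h2ba. Over the 18 other H2B genes the median was 3 differing bases, and the highest was 18, in Hist2h2be. Each of the 5 printed copies is in the coding exon of its gene.

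Promoters without any unique possible read were covered too. Coverage per CpG within reach of a possible read was 5.25 at the 6 histone promoters without any unique read. Over all promoters the median was 5.28 where no possible read was unique and 6.71 where all were. How the workflow placed such reads is not given in the sources used here. A possible read was counted for a promoter only where it lies wholly inside the window, so reads across an edge can also give coverage. A level printed for a member may include reads from its copies, but this was not tested.

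**Figure D1:**
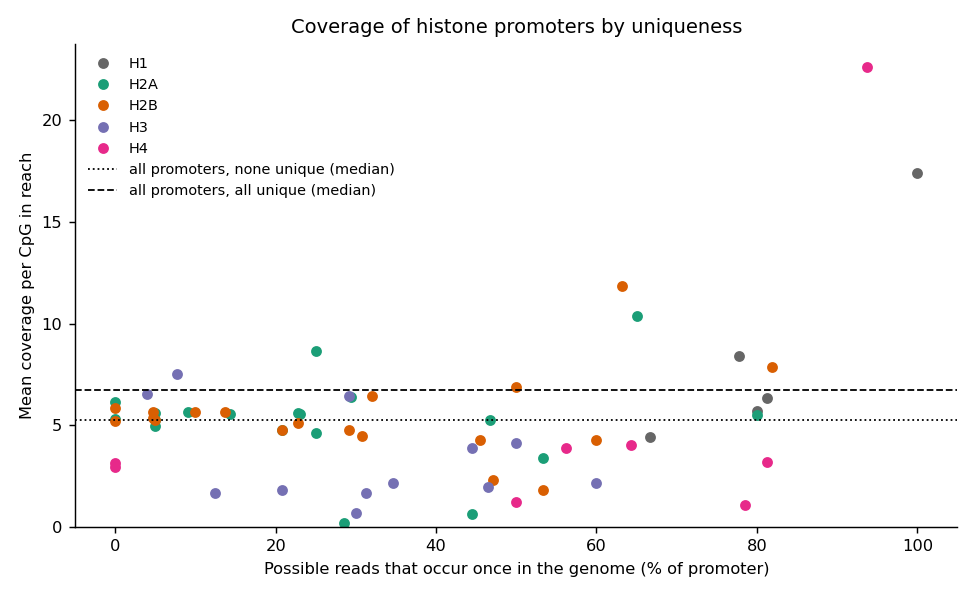
Mean coverage over the 11 mice per CpG within reach of a possible read (y axis) against the percent of the promoter's possible reads that occur once in the genome (x axis), with 1 point per histone promoter and colours for the histone class. The dotted and dashed lines are the medians of all promoters without (5.28) and with only (6.71) unique reads, and the points at the left edge lie on both sides of the dotted line and not at 0.

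Most histone promoters were nearly unmethylated. Over the 63 promoters the median level was 2.53% in control and 3.20% in amphetamine, against 8.15% and 8.29% over all promoters, and 37 promoters (58.7%) were under 5% in both groups. CpG-dense promoters in general were as low or lower, since the 7163 promoters with a ratio of observed to expected CpG of at least 0.6 had medians of 2.34% in control and 2.31% in amphetamine, and 76.8% of them were under 5% in both groups. The median coverage of a histone promoter was 235.7 in control and 268.8 in amphetamine, and over all promoters 184.2 and 230.2. The median of this ratio was 0.773 over the histone promoters against 0.461 over all promoters. Among promoters with reads in all mice, the lowest means over both groups belonged to Hist1h1b, a linker histone, at 0.944% ± 0.527 (SD, n = 6) in control and 0.486% ± 0.511 (n = 5) in amphetamine, and to Hist2h4, an H4 gene, at 1.17% ± 0.804 and 0.672% ± 0.541. Hist1h3b and Hist1h1d followed. Hist1h1d was at 0 in all 5 amphetamine mice and ranged from 0 to 15.2% in control.

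The levels had a gap. Hist1h2ba and Hist1h2aa share 1 promoter measurement, and with Hist1h4f and Hist2h3b they were the 4 promoters above it. Hist2h3b, an H3 gene, had 20.98% ± 10.1 in control and 19.7% ± 2.95 in amphetamine. Hist1h4f had 44.3% ± 32.7 in control and 46.6% ± 18.6 in amphetamine at a mean coverage of only 20.2 and 28.2, and its control mice ranged from 0 to 95.2%. Below the gap, the highest promoter in control was Hist1h2ah at 6.96% ± 5.08, and in amphetamine Hist1h2bj at 12.2% ± 6.20. Among gene bodies, Hist4h4 was almost fully methylated, at 94.2% ± 7.04 in control and 94.9% ± 3.32 in amphetamine. Hist1h2be reached 41.1% ± 6.59 and 43.3% ± 4.54 over an annotated body, chr13:23583742-23621124, that extends far beyond its coding stretch, whereas its promoter was at 1.73% and 1.99%. Hist1h2aa was at 77.9% ± 15.96 and 88.5% ± 9.82.

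**Figure D2:**
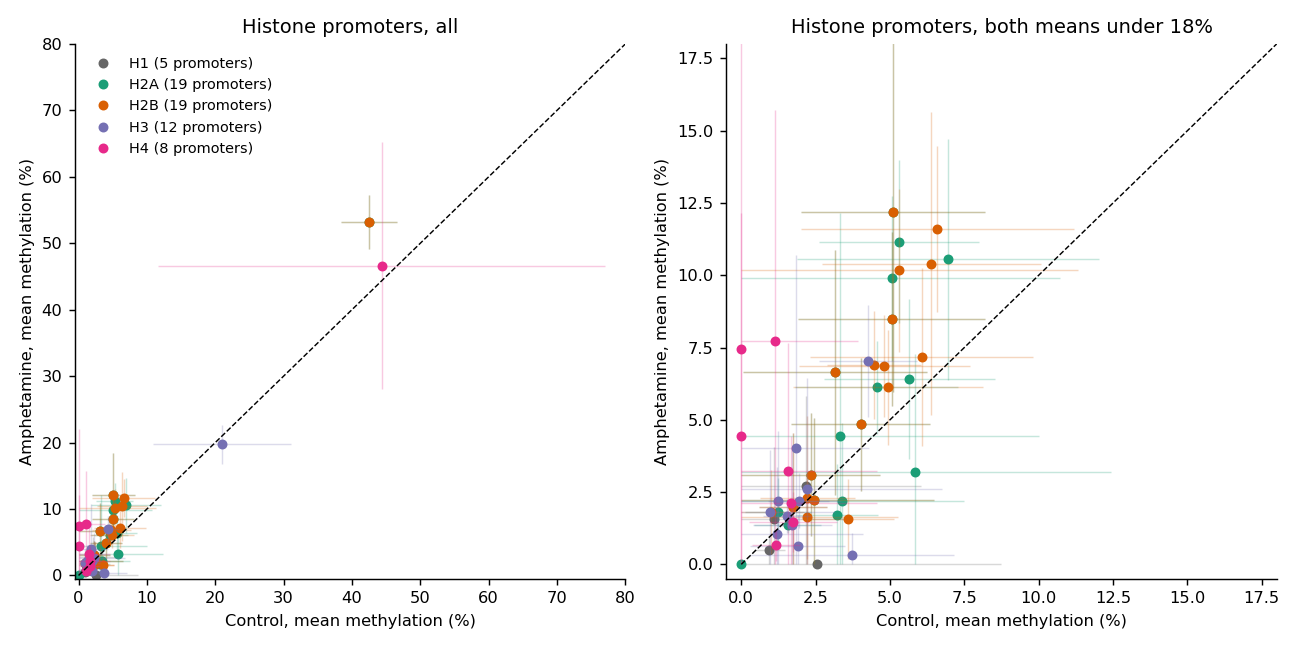
Mean promoter methylation in percent in control mice (x axis, n = 6) and amphetamine mice (y axis, n = 5) for the 63 histone promoters, coloured by histone class, with pale bars of 1 SD that stop at 0 and at the edge of the panel. The left panel shows all and the right panel those with both means under 18%, where most H2B points lie above the dashed line of equal values.

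Amphetamine was compared with control to ask whether exposure in utero left a difference in methylation at birth. No histone promoter passed the limma test adjusted over all promoters, which 0.0123% of all promoters did, and the lowest adjusted p-value among them was 0.930. The direction was uneven, with 45 promoters higher, 17 lower and 1 equal, or 71.4% higher against 48.6% of all promoters. The median difference was 0.818 percentage points, against 0 over all promoters. At an unadjusted p-value under 0.05 there were 5 promoters higher and 2 lower, or 11.1% of members against 4.58% of all promoters (2.41% higher and 2.17% lower). These 7 promoters lay in 5 blocks of overlapping windows. Taking the first promoter of each of the 34 blocks left 20 higher, 13 lower and 2 under 0.05, or 5.88%. In none of the 60 histone promoters with reads in all mice were the groups apart, against 0.228% higher and 0.167% lower of the 21012 promoters with reads in all mice.

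By class, the H2B promoters were higher in 16 of 19 cases with a median difference of 1.19 percentage points, and the H2A promoters in 13 of 19 with 0.822. H4 promoters were higher in 6 of 8, with a median of 1.97, the highest being Hist1h4j at 0 in all control mice and 0 to 33.3% in amphetamine. Of the H3 promoters 7 of 12 were higher, with a median of 0.210, and of the H1 promoters 3 of 5, with 0.261. By place, 19 of 23 promoters of the first chromosome 13 cluster and 20 of 26 of the second were higher. On chromosome 3, by contrast, 4 of 10 were higher with a median of -0.347, and on chromosome 11 it was 1 of 3. Whether the classes or places differ from each other was not tested.

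**Figure D3:**
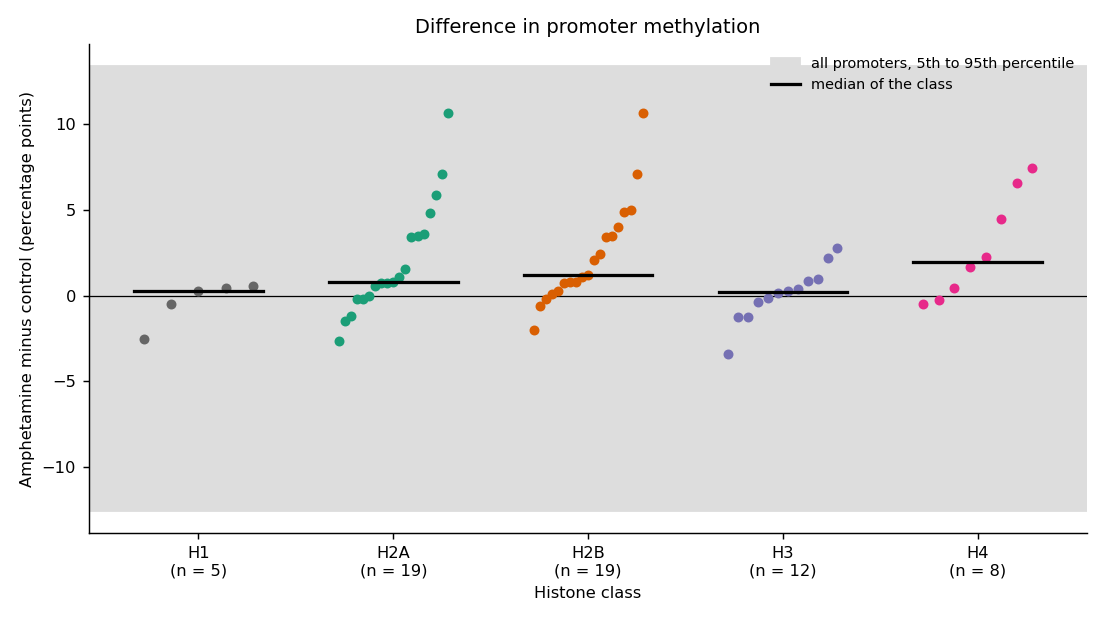
Difference in mean promoter methylation, amphetamine minus control, in percentage points (y axis) by histone class (x axis), with 1 point per promoter, sorted within the class, and a bar for the class median. The grey band spans the 5th to the 95th percentile of all 24391 promoters (-12.6 to 13.4), and every histone promoter lies inside it.

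The H2A gene Hist1h2ae (chr13:23570622-23572621) had the smallest p-value among promoters. Its control mice ranged from 2.61% to 9.44%, with a mean of 5.30% ± 2.70, and its amphetamine mice from 7.48% to 14.4%, with a mean of 11.2% ± 2.81. The ranges overlapped between 7.48% and 9.44%. This promoter window contains the gene body of Hist1h2bg, which had the same means, SDs and ranges, so both are the same measurement. The difference of 5.87 ± 1.65 (SE) percentage points had an unadjusted p-value of 0.0049 and an adjusted p-value of 0.930 in the limma fit. Hist1h2bj and Hist1h2ag, an H2B and H2A pair with 1 set of values, had 5.10% ± 3.09 in control (0.606% to 9.53%) and 12.2% ± 6.20 in amphetamine (5.86% to 20.7%), an unadjusted p of 0.0266 by limma. Hist1h3f and Hist1h2bh, whose windows overlap, were at 4.25% and 4.45% in control and at 7.03% and 6.89% in amphetamine. In each of these the amphetamine mean lay above the control mean while single mice of both groups overlapped.

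Fewer members were lower. Hist1h3i, an H3 gene, had 3.73% ± 3.42 in control (0 to 8.33%) and 0.333% ± 0.745 in amphetamine (0 to 1.67%), with an unadjusted p of 0.0450 by limma. Its mean coverage was 60.8 in control and 60.2 in amphetamine, against medians of 235.7 and 268.8 over the histone promoters. A level of a few percent thus rests on a small part of a low coverage. Hist1h2bl and Hist1h2ai, a pair that shares most of its window, had 3.58% ± 1.57 and 3.21% ± 1.40 in control and 1.57% ± 1.40 and 1.71% ± 1.76 in amphetamine. Among the 25 promoters that share a possible read with Hist1h2ba, these were the only 2 that were lower. The unadjusted limma p of Hist1h3i, Hist1h2bl and Hist1h2bh crossed 0.05 under other settings of the fit, with highest values of 0.0542, 0.0607 and 0.0776.

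In gene bodies the members with small p-values were mostly H2B genes. Across the 53 bodies, 32 were higher and 19 lower, with a median difference of 0.804 percentage points against -0.0852 over all gene bodies. At an unadjusted p under 0.05 there were 5 higher and 1 lower, or 11.3% of members against 4.34% of all gene bodies (2.06% higher and 2.28% lower). None passed the adjusted limma test, which 0.0194% of all gene bodies did, and the lowest adjusted p was 0.977. All 5 that were higher were H2B genes, among 19 H2B bodies of which 14 were higher. The other was Hist1h3i at 3.90% ± 3.33 in control and 0.385% ± 0.860 in amphetamine. H2B bodies had a median coverage of 239.3 in control and H2A bodies 28. Where windows of H2A and H2B promoters overlap and the gene lies within its window, a median of 95.3% of the promoter's coverage lay in the H2B body (9 genes, 56.8% to 100%) and 7.23% in the H2A body (6 genes, 5.61% to 32.3%). The part of coverage in the difference between the classes was not tested.

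Hist1h2bh (chr13:23542970-23543357) was the only member whose groups did not overlap. Its control mice ranged from 4.01% to 7.01%, with a mean of 5.44% ± 1.12, and its amphetamine mice from 7.87% to 11.5%, with a mean of 9.36% ± 1.60. Every amphetamine mouse lay above every control mouse, as in 0.147% of the 23742 gene bodies with reads in all mice. The difference was 3.92 ± 0.866 (SE) percentage points with a 95% interval from 2.004 to 5.84, with an unadjusted limma p of 0.0010 and an adjusted p of 0.977. Hist1h2bg had 5.30% ± 2.70 in control and 11.2% ± 2.81 in amphetamine, with an unadjusted limma p of 0.0041. These are the values given above for the promoter of Hist1h2ae and not a further measurement. Hist1h2bc rested on a longer body, chr13:23684199-23692488, and had 7.25% ± 5.46 (0 to 14.8%) and 16.9% ± 4.97 (8.66% to 21.7%), with an unadjusted limma p of 0.0090. Hist1h2bj had 6.24% ± 3.41 and 13.5% ± 5.11, with an unadjusted limma p of 0.0132. The control and amphetamine mice overlapped in these 3.

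In other H2B bodies with the same coding stretch the means lay closer together. Hist1h2br, identical to Hist1h2bj over the 149 bases, had 8.996% ± 4.72 in control and 8.81% ± 4.87 in amphetamine. Hist1h2bq, also identical there, had 7.11% ± 3.93 and 8.62% ± 1.59. The annotated bodies of Hist1h2br and Hist1h2bq are longer, with 24 possible reads each against 10 in Hist1h2bj. These bodies thus span much sequence outside the shared stretch, but its part in the contrast was not tested. In amphetamine, mean coverage was 361.4 in the body of Hist1h2br and 350.6 in its promoter window. For Hist1h2bq it was 294.8 and 278.4. The promoter windows of the 3 genes are of equal length and hold the shared stretch. There, amphetamine minus control was 1.101 percentage points in Hist1h2br and 2.06 in Hist1h2bq, against 7.08 in Hist1h2bj. Outside chromosome 13, the bodies of Hist2h2bb and Hist2h2be were at 13.6% ± 12.1 and 5.88% ± 8.25 in control. In amphetamine these bodies were at 7.77% ± 7.21 and 2.58% ± 3.32, with wide overlap.

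**Figure D4:**
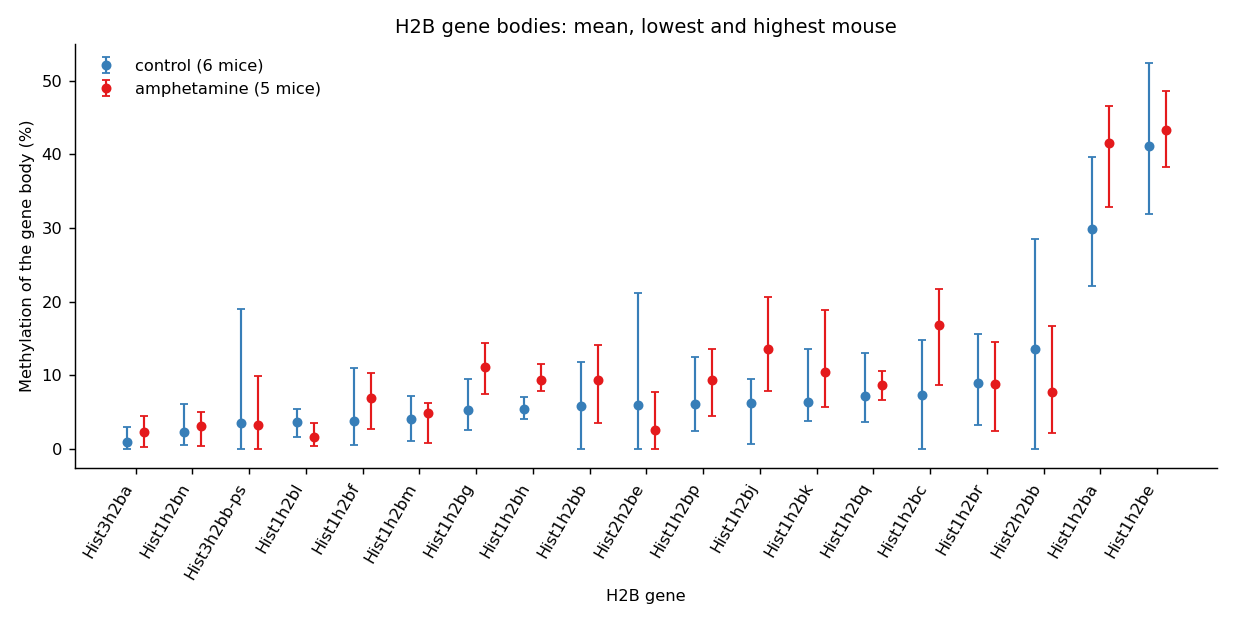
Methylation of the 19 H2B gene bodies in percent (y axis), sorted by the control mean, with a point for the mean and a bar from the lowest to the highest mouse for control (6 mice) and amphetamine (5 mice). The bars of Hist1h2bh, at 4.01% to 7.01% and 7.87% to 11.5%, are the only ones that do not overlap.

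Among histone promoters and gene bodies, the germ-line pair had the largest absolute differences. The shared promoter of Hist1h2ba and Hist1h2aa had 42.5% ± 4.09 in control, from 36.9% to 46.6%, and 53.2% ± 4.10 in amphetamine, from 46.1% to 56.8%. The groups overlapped only between 46.1% and 46.6%. The difference of 10.7 ± 5.29 (SE) percentage points had an unadjusted limma p of 0.0702 and a 95% interval from -1.05 to 22.4. The test uses a variance moved toward that usual for promoters at this level, and the unadjusted limma p ran from 0.0013 with a common prior variance to 0.146 without promoters whose SD was 0 in a group. The body of Hist1h2ba (chr13:23933773-23934156) had 29.9% ± 6.16 in control, from 22.1% to 39.6%, and 41.6% ± 5.42 in amphetamine, from 32.8% to 46.5%, with an unadjusted limma p of 0.0063 and an adjusted p of 0.977. The body of Hist1h2aa, whose possible reads were all unique, differed by 10.5 ± 7.73 (SE) points, with an unadjusted limma p of 0.202. Hist1h1t, the testis linker histone, was not analysed here.

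Levels of the other copies were set beside the number of reads they share with Hist1h2ba. Among the 27 other H2A and H2B promoters of chromosome 13, the 3 that share no possible read had a median of 1.73% in control and 1.99% in amphetamine. That median is Hist1h2be, whose promoter window lies far from its coding stretch at chr13:23585596-23585744. Hist1h2af was at 0 in both groups, with a mean coverage down to 4.5. Hist1h2al, a processed pseudogene, had a mean coverage of 24.2 in control and 14.6 in amphetamine. This group is thus a weak reference for the others. With 3 shared reads (6 promoters) the medians were 3.40% and 4.84%, with 5 (5 promoters) 4.45% and 6.89%, with 6 (5 promoters) 5.31% and 10.2%, and with 7 (8 promoters) 5.08% and 7.83%. The order was not strict, since the medians with 7 shared reads were below those with 6, and Hist1h2bn and Hist1h2ak, with 5, were at 2.33% in control, below Hist1h2al, with none, at 3.33%. Of the 25 members that share a read with Hist1h2ba, 23 were higher in amphetamine, with a median difference of 2.78 percentage points. An unadjusted p under 0.05 was reached by 6 of them (24.0%), where 4.58% of all promoters had one and 48.6% were higher. Of the 36 that share none, 20 were higher and 15 lower, with a median difference of 0.199, and 1 (2.78%) was under 0.05. Many of the 25 are H2A and H2B partners with overlapping or identical windows, and the shared reads occur at several of them. They are therefore not 25 independent measurements. All 7 histone promoters under 0.05 lay in 5 blocks of overlapping windows. The 12 H2A and H2B promoters without a shared read had 5 higher and 6 lower, with a median difference of -0.100. The 21 promoters with at least 50% unique reads had 11 higher and 10 lower, with none under 0.05, whereas the other 42 had 34 higher and 7 lower. The part of shared reads in the differences was not tested.

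**Figure D5:**
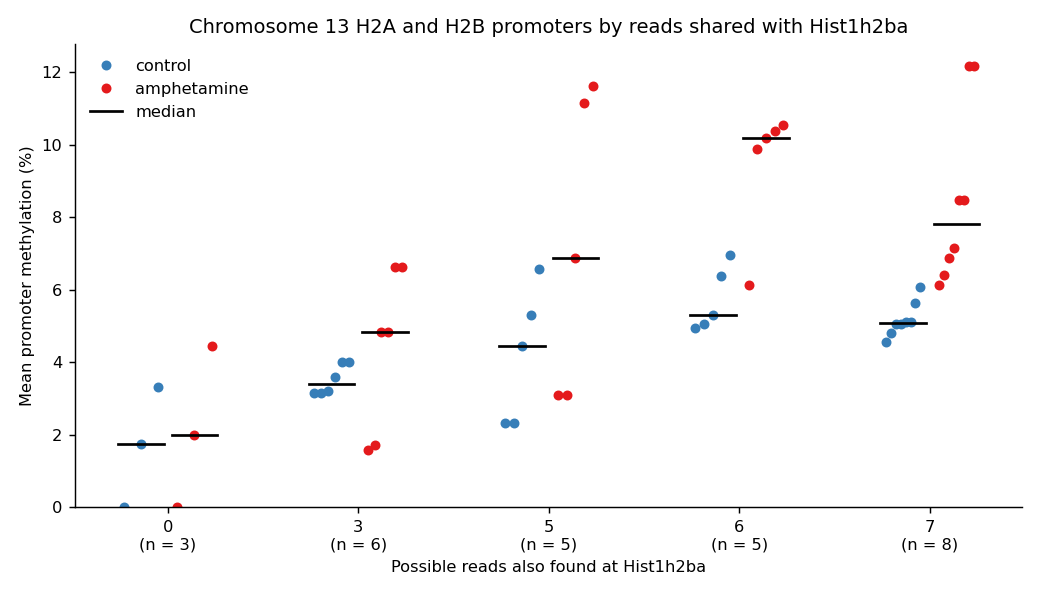
Mean promoter methylation in percent (y axis) of the 27 H2A and H2B promoters on chromosome 13 apart from Hist1h2ba and Hist1h2aa, grouped by how many of their possible reads also occur at Hist1h2ba (x axis), for control and amphetamine, with bars for the medians. The promoters without shared reads are Hist1h2af, Hist1h2al and Hist1h2be. The control medians lie at 1.73% without and between 3.40% and 5.31% with shared reads, and the amphetamine medians at 1.99% and between 4.84% and 10.2%.

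CpG islands and tiles were compared in the same way. Of 43 islands that overlap a histone promoter, 27 were higher and 13 lower, with a median difference of 0.834 percentage points. An unadjusted p under 0.05 was reached by 4 of them, or 9.30% against 3.98% of all islands, and none passed the adjusted limma test, against 0.0135% of all islands. The island of Hist1h2bh and Hist1h3f (chr13:23543014-23543275) held the values of the Hist1h2bh body, with groups that did not overlap, as in 0.325% of the 13539 islands with reads in all mice. Of 44 tiles of 5000 bp over histone genes, 26 were higher and 16 lower, with 3 (6.82%) under 0.05 against 4.26% of all tiles.

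Females were compared with males over the same 11 mice. The sex labels were checked on the X chromosome, where the median of 401 CpG islands was 28.1% in females and 2.52% in males. Of the histone promoters 38 were higher in females and 24 lower, with a median difference of 0.436 percentage points. An unadjusted p under 0.05 was reached by 2, or 3.17% against 6.52% of all promoters and 5.08% in the fit without chromosomes X and Y. None passed the adjusted limma test, against 0.603% of all promoters and 0.0216% without chromosomes X and Y, and the lowest adjusted p was 0.665. Both were of 1 divergent pair, with Hist1h2bc at 10.4% ± 3.56 in females and 4.03% ± 5.08 in males and Hist1h2ac at 10.0% ± 3.28 and 3.95% ± 5.07, and the sexes overlapped in each. Of the gene bodies 31 were higher and 20 lower, and 1 (1.89%) was under 0.05 against 6.45% of all and 5.47% without chromosomes X and Y. This was Hist1h2bq, where males had the higher mean, 9.77% ± 3.13 against 6.15% ± 1.93, with an unadjusted p of 0.0346 in the limma fit. For the promoter of the germ-line pair the female mean was 48.4% ± 5.95 and the male mean 46.2% ± 8.23. The sexes were not balanced between the treatments, and no fit with both terms can be had from group summaries.

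In the 2 related gene lists no promoter and no gene body had an unadjusted limma p under 0.05 between amphetamine and control. Replication-independent variants are histones deposited outside S phase, such as H3.3 and the centromeric Cenpa. Of their 13 promoters 5 were higher and 7 lower, with a median difference of -0.378 percentage points. The highest levels with reads in all mice were H3f3b, an H3.3 gene, at 96.5% ± 3.37 in control and 84.8% ± 21.5 in amphetamine, and the spermatid linker histone H1fnt at 91.8% ± 4.32 and 88.8% ± 9.37. The window of H3f3b had a mean coverage of 71.5 and 77.2. Its gene body, at 676.2 and 859.8, had only 4.48% ± 3.13 and 4.49% ± 1.76. The gene body of H1fnt was at 89.3% ± 8.66 and 92.3% ± 7.87. Factors of the histone locus body and of 3′ end processing had 8 of 16 promoters higher and 8 lower, with the highest level at Zfp473, a U7 snRNP-associated zinc finger protein (100% in the 5 control mice with reads and 86.5% ± 21.8 in amphetamine). The gene body of Zfp473 was at 9.99% ± 3.75 in control and 8.63% ± 2.22 in amphetamine. Between the sexes Cstf2, a cleavage factor gene on the X chromosome, was higher in females at 35.8% ± 7.76 against 4.26% ± 2.95, with an adjusted limma p of 0.0060. Unadjusted p-values under 0.05 were also found at the promoters of Casp8ap2, a histone locus body protein, with 15.6% ± 5.65 in females and 7.52% ± 5.62 in males, and of Cpsf2 at 1.45% ± 0.777 and 0.367% ± 0.519. The gene body of Cstf2 held the same values, with an adjusted limma p of 0.0029. Among the other gene bodies of the lists, Coil, which encodes coilin, was in 1 of its 2 annotated bodies at 22.9% ± 2.70 in females and 30.7% ± 4.61 in males. Zfp473 was at 7.54% ± 1.34 against 11.6% ± 3.24, and H3f3b at 5.92% ± 2.41 against 2.75% ± 1.08. Coil, Zfp473 and H3f3b were under an unadjusted 0.05, and the lowest adjusted limma p of these 3 was 0.364.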

How the data were processed

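Reduced representation bisulfite sequencing, which cuts DNA at short recognition sites and reads CpG methylation near the cuts, was run on pancreas of 11 mice. Per the study's methods, single-end reads of 50 bases from DNA cut with MspI and TaqI were aligned to mm10 with the methylseq workflow and Bismark, and summarised per region with RnBeads; Bismark, limma and methylKit are also named in the submitters' processing notes. The deposited methylation values are fractions of methylated reads (0 to 1), given by the authors as the mean, SD, lowest and highest mouse of each group, and are printed here as percent. The deposited coverage is an unscaled signal per region, as the mean, lowest and highest mouse of each group. Values of single mice were not used here. The files also hold the authors' own differences, quotients, p-values, adjusted p-values and ranks, which were not used.

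The limma test (limma 3.58.1, R 4.3.3; two-sided) was rebuilt from group means, SDs and numbers of mice, with a prior variance that followed mean methylation, over every promoter or gene body of a table, and p-values were adjusted by Benjamini-Hochberg over the whole table. The fit used no covariate. On simulated mice for the promoter comparison of amphetamine with control (21012 promoters, 200 of them shifted), 83% of shifts of 2 SD and 100% of shifts of 4 SD had an unadjusted p-value under 0.05, as did 4.44% of the unchanged promoters. Promoters with mean levels closest to 0 were not among those shifted, so this recovery does not cover histone promoters at such levels. Regions in which a mouse had no reads were tested on the remaining mice.

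Possible reads were stretches of 50 bases of GRCm38 (the NCBI assembly of the build named mm10) that start at a cut site, with C read as T. A possible read was called unique where it occurs at 1 place in the genome. Gene strands came from GENCODE M21. Of the 25802 genes of the gene table, 25426 have an identifier in GENCODE M21, and 18645 have the same start and end there, so the files' annotation was another release. The coordinates printed for members are those of the files.

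Members named in the text are the germ-line genes, the 4 highest and 4 lowest promoter levels, in each comparison the 3 higher and 3 lower with the smallest p-values, and all whose groups do not overlap; other members named for comparison were chosen after their values were seen. The members and lists were chosen with earlier results of these data known. The alternatives changed the prior variance, the coverage minimum, the mice required, the chromosomes fitted, the region type and, chosen after seeing the data, the sharing of reads and the overlap of windows. Results across sexes and treatments come from the same 11 mice.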

Additional observations from a re-analysis of the deposited data

How the results depend on the processing

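No paired analysis was possible because mice are not numbered across groups in the labels, and leaving out each mouse was not run because the files hold group summaries. The direction of the median difference and the count of adjusted calls (0) among histone promoters, gene bodies and islands held in both comparisons under every alternative run on all members, and among the members chosen by unique reads, by blocks or by sharing no read with Hist1h2ba. Within the H2A and H2B promoters alone, the 12 that share no read with it had median differences of the other sign, -0.100 for amphetamine and -0.554 for females against males. The 7 promoters under an unadjusted 0.05 for amphetamine became 3 over tiles, 2 with the first promoter of each block, 1 among members sharing no possible read with Hist1h2ba and 0 among those with at least 50% unique reads. The 2 promoters for females against males became 1, 0 and 0 under the last 3 of these, and the 1 gene body became 0 with a common prior variance. All 538 values of single members under these alternatives kept their side of the adjusted threshold. Their direction was fixed beforehand, as was a median over the same members, since each setting of the fit used the same group means. In the main limma fit the lowest adjusted p of a histone promoter or gene body was 0.665. Of the summaries, 126 kept their direction or stayed within 1.5 times their count, and 8 did not. At the unadjusted 0.05, the promoters of Hist1h2ba, Hist1h2bh, Hist1h2bl and Hist1h3i and the bodies of Hist1h3i and, between the sexes, Hist1h2bq changed side in at least 1 alternative. The subsets hold fewer members. Depth of single mice is unknown, so no interval per mouse can be given.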
